A study of Sus scrofa with 21 samples.

Results

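The genes of meiotic chromosome synapsis and recombination were followed in testis RNA from 21 boars. A list of 43 members was given by symbol, and the rows of the count files whose Ensembl pig gene identifier has one of these symbols were taken. Of the 43 members, 36 had such an identifier. No identifier was matched to RAD21L1, TERB1, MAJIN, PRDM9, TEX15, TEX12 and RNF212, which were not analysed here. All 36 matched members reached 1 CPM (the read count scaled to the effective size of its library) in at least 11 of the 21 libraries, as did 12835 of the 25880 genes in the files.

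Boars had been chosen by the study for extreme sperm hyperactivity, the vigorous whip-like swimming that a sperm cell needs to reach and enter the egg. In Landrace, 4 boars labelled low (L1, L2, L3 and L4) and 4 labelled high (L5, L6, L7 and L8) on the day of ejaculation, day 0, were compared. A second Landrace comparison is of the change in hyperactivity over 96 h of storage at 18 °C, with 4 low boars (L2, L9, L10 and L12) and 3 high boars (L7, L13 and L15). Boars L2 and L7 are in both. In Duroc, 5 boars are labelled High (D1, D2, D3, D4 and D5) and 3 Low (D6, D7 and D9). The study's own listing of boars puts most of these names in the opposite group. Its names may belong to other boars. The deepest Duroc libraries here, D3 and D2 (125576407 and 84446404 counts in genes), are labelled High. The Duroc boars with the most reads in the listing, there named D9 and D8, are in its high group too. Which boar of the listing each library is was not tested. Duroc differences are therefore given as labelled, and their direction is in doubt. All boars were purebred animals of 1 artificial insemination station, untreated, and each gave 1 library from testis collected after slaughter. The labels give no age for a boar. Each group is a choice of extreme animals, so the breed comparison of 13 Landrace and 8 Duroc boars is not one of average animals of each breed.

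Meiosis begins when a spermatogonium stops dividing and copies its chromosomes for the last time. Each pair of sister chromatids is then folded along a protein axis of cohesins and HORMA-domain proteins, chromosome ends are tied to the nuclear envelope, and SPO11 cuts the DNA. The cut ends are coated by strand exchange proteins such as DMC1 and search for the homologous chromosome. The central part of the synaptonemal complex then zips the homologues together, and crossover factors such as MSH4 and MSH5 turn a few of the joints into crossovers. In a testis these steps take place in spermatocytes, which share the tissue with spermatogonia, spermatids and somatic cells. In bulk tissue, fewer cells of a type and less RNA per cell cannot be told apart.

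The members were split by role. The early steps held 23 of the measured members, which were 2 of meiotic entry, 7 of the axis and cohesin, 1 of telomere attachment, 4 of break formation and 9 of strand exchange. The late steps held 12, of which 5 were central synaptonemal complex genes and 7 act in crossover formation and axis remodelling. TEX14, which keeps the bridges between germ cells open, was put in neither.

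The libraries held 41358671 to 125576407 counts in genes, and 29.4% to 38.99% of the reads of a library were counted in no gene. Pairs of boars in the same group differed by far more than sampling noise (chi-square per degree of freedom 57.2 to 372), so each was counted as a separate sample. Some boars were the highest or the lowest of the 21 more often than others. Over the 36 members this held 11 times for D2, 11 for L8, 9 for L3, 8 for D9 and 7 for L13. Over all genes it held for 15.6% of genes in D2, 30.8% in L8, 23.2% in L3, 9.25% in D9 and 31.5% in L13, against 30.6%, 30.6%, 25%, 22.2% and 19.4% of the members. Testis markers were present in every library. Pachytene spermatocyte genes summed to at least 2087 CPM and elongating spermatid genes to at least 6823 CPM in every boar. AMH, a Sertoli cell gene of immature testis, had 0 counts in every library.

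**Figure D1:**
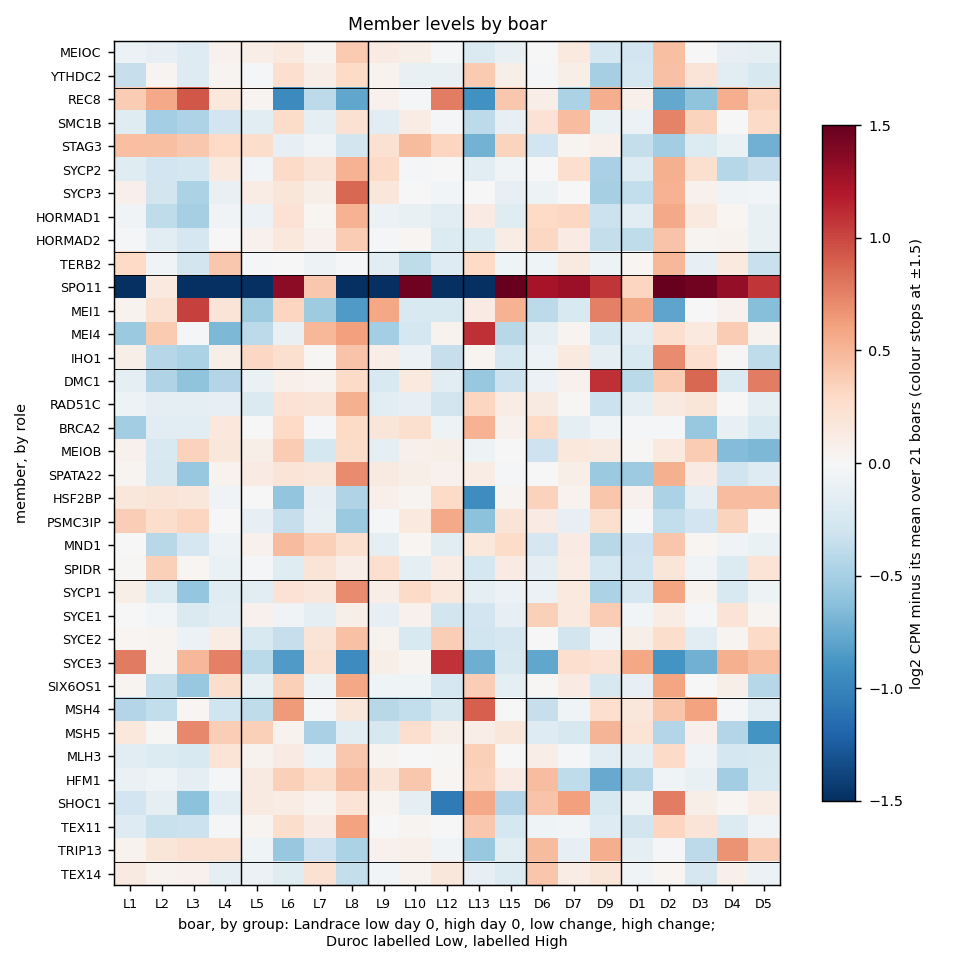
Level of the 36 measured members (rows, by role from meiotic entry at the top to TEX14) in the 21 boars (columns, by group), as log2 CPM minus the member's mean over the boars. Red is above that mean and blue below. SPO11 shows the widest range, with 8 Landrace boars at 4.74 to 6.74 CPM, and the columns of L8 and D2 are mostly red while their REC8 and SYCE3 cells are blue.

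SPO11, the topoisomerase-like enzyme that makes the DNA breaks of meiosis, varied more between Landrace boars than any other member. It is ENSSSCG00000007502, on chromosome 17 from 57730676 to 57745875 of Sscrofa11.1 in the RefSeq annotation. In 8 Landrace boars its level was 4.74 CPM in L9, 5.37 in L1, 5.57 in L3, 5.67 in L5, 5.75 in L12, 6.02 in L13, 6.13 in L4 and 6.74 in L8. The other 5 Landrace boars stood at 22.5 CPM in L2, 26.9 in L7, 51.7 in L6, 55.9 in L10 and 60.1 in L15. No boar lay between 6.74 and 22.5 CPM, a gap of 3.34-fold, and the highest boar of the 21 was 16.7-fold above the lowest. The lowest boar still had 262 SPO11 reads and the highest by reads 6966, so the counting error of a library is small beside this range.

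All 8 Duroc boars were above the gap, with 25.4 CPM in D1, 42.9 in D5, 42.9 in D9, 48.1 in D6, 49.6 in D7, 50.6 in D4, 55.6 in D3 and 79.1 in D2. L2, D1 and L7 were the lowest boars above the gap, at 22.5 to 26.9 CPM, and the next boar up had 42.9 CPM. The standard deviation (SD) of log2 CPM was 1.48 over the Landrace boars, above that of 99.6% of all genes tested, and 0.46 over the Duroc boars, above that of 73.1%. The levels crossed the hyperactivity groups. Both Landrace day 0 groups held boars below and above the gap, as did both groups of the storage comparison.

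The genes beside SPO11 on chromosome 17 did not share its pattern. RAE1, the next gene downstream, ran from 69.8 to 135 CPM in Landrace and from 71.5 to 103 CPM in Duroc. Over the 21 boars, Pearson's r of log2 CPM with SPO11 was 0.37 for RAE1 and -0.16 for CSTF1, and lay between -0.26 and 0.38 for the 6 nearest measured genes. The genes whose levels were most like SPO11 over the 21 boars were ZNF366 (r = 0.77), HTATIP2 (r = 0.74), ZNF544 (r = 0.73) and VEPH1 (r = 0.73), and the most opposite was WNT8A (r = -0.80). These genes were picked as the extremes of 12835, and all values share the same libraries.

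**Figure D2:**
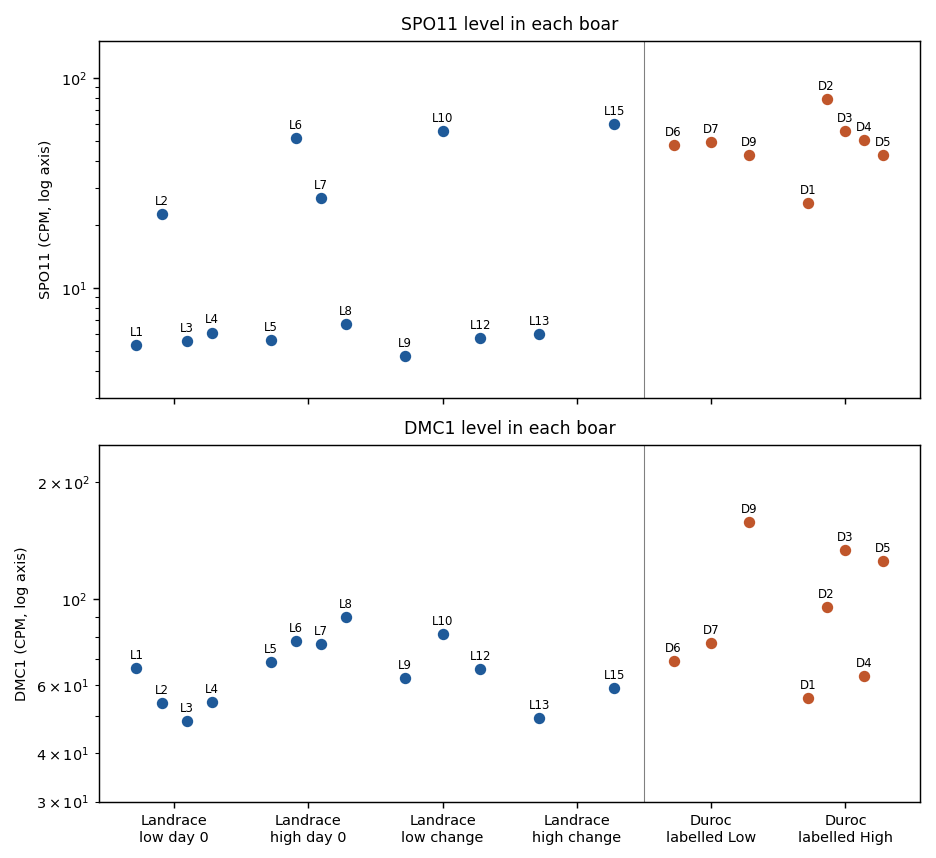
Level of SPO11 (top) and DMC1 (bottom) in CPM on log axes, with 1 point per boar, Landrace in blue and Duroc in orange. L2 and L7 belong to both Landrace comparisons and are drawn in the day 0 groups only. SPO11 leaves the range from 6.74 to 22.5 CPM empty, and the 4 highest DMC1 values, from 95.5 CPM up, are in Duroc boars.

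DMC1, the meiosis-specific recombinase that carries the search for the homologue, spread out in Duroc instead. It is ENSSSCG00000000103, on chromosome 5 from 9431236 to 9470333. Its level was 55.6 CPM in D1, 63.2 in D4, 69.3 in D6, 77.2 in D7, 95.5 in D2, 125 in D5, 133 in D3 and 158 in D9. The 4 highest Duroc boars, of which D9 is labelled Low and the others High, stood above every Landrace boar, of which the highest was L8 with 89.9 CPM. The SD of log2 CPM was 0.55 over the Duroc boars, above that of 82.1% of genes, and 0.28 over the Landrace boars. Within the members as a whole the spread was ordinary. The median SD was 0.28 over Landrace and 0.30 over Duroc, and over all genes 0.34 and 0.32.

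Between Landrace boars with high and low hyperactivity at day 0, members of the same process moved in opposite directions. REC8, SYCE3 and TRIP13 were lower and DMC1, HFM1 and SMC1B higher in the high boars. These were 6 of 36 members, or 16.7%, that passed edgeR's quasi-likelihood test (Benjamini-Hochberg adjusted p under 0.05), where 19.9% of all 12835 genes did, made up of 4.47% higher and 15.4% lower. The likelihood ratio test called 11 members, or 30.6%, beside 25.7% of all genes, and DESeq2 15, or 41.7%, beside 29.2%, so whether the share of members lay below or above that of all genes depended on the test. The unadjusted p was under 0.05 for 21 members, and for 41.2% of all genes. The groups did not overlap in 13 members, or 36.1%, and in 27.8% of all genes.

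REC8, the meiotic kleisin that holds sister chromatids in the axis, had the smallest p of the members. It is ENSSSCG00000002001, on chromosome 7 from 75118743 to 75127759. The low boars had 47.5, 54.2, 69.6 and 40.8 CPM (L1 to L4) and the high boars 37.4, 18.8, 27.9 and 21.2 CPM (L5 to L8). Every high boar was below every low boar, with L6 the lowest and L5 nearest to the low group. The mean was 53.0 ± 12.3 CPM (SD, n = 4) against 26.3 ± 8.33 CPM (SD, n = 4), and this is a log2 fold change of -0.99 with a standard error of 0.24 (adjusted p = 0.0228 by edgeR). The exact permutation test over the 70 assignments of the boars gave p = 0.0286, two-sided, the smallest that 4 against 4 allow.

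SMC1B, the meiotic partner of REC8 in the cohesin ring, went the other way. Its level was 254, 202, 209 and 235 CPM in the low boars and 255, 348, 260 and 336 CPM in the high boars, so L1 and L5 almost met. This is a log2 fold change of 0.42 with a standard error of 0.14 (adjusted p = 0.0478 by edgeR). STAG3, another cohesin member, had 653, 655, 631 and 586 CPM in the low and 573, 438, 462 and 395 CPM in the high boars. Its groups did not overlap and its log2 fold change was -0.42, but the adjusted p was 0.0577 by edgeR and it was not called. All 7 axis and cohesin members had an unadjusted p under 0.05, 5 of them with values above 0. SYCP3 of the lateral element gave a log2 fold change of 0.53 (adjusted p = 0.0595), SYCP2 0.40 (adjusted p = 0.0695), HORMAD1 0.43 (adjusted p = 0.0675) and HORMAD2 0.29 (adjusted p = 0.0935).

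Of strand exchange, DMC1 was the member called. It had 66.5, 53.9, 48.4 and 54.2 CPM in the low boars and 68.9, 77.8, 76.4 and 89.9 CPM in the high boars. The groups did not overlap, with L1 and L5 closest to each other. This is a log2 fold change of 0.50 with a standard error of 0.14 (adjusted p = 0.0319 by edgeR). MND1 and PSMC3IP form 1 complex that helps DMC1 to invade the homologue, and the pair had opposite signs. MND1 had 15.1, 11.3, 12.7 and 14.3 CPM in the low and 15.8, 21.01, 19.4 and 17.8 CPM in the high boars, a log2 fold change of 0.48 (adjusted p = 0.0563). PSMC3IP gave a log2 fold change of -0.50 (adjusted p = 0.0776), also without overlap. Neither passed the test.

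In break formation no member was called. MEI1, needed for the breaks in mouse, had 12.99, 14.6, 25.5 and 14.3 CPM in the low and 8.62, 15.7, 8.66 and 6.95 CPM in the high boars, which overlap through L6 (log2 fold change -0.74, adjusted p = 0.0733). IHO1, a partner of the axis in break formation, gave a log2 fold change of 0.42 (adjusted p = 0.0841). SPO11 had the widest error of the members, 1.19 with a standard error of 0.68 (adjusted p = 0.195), and its values in the groups are those given above. With each boar left out, the log2 fold change of SPO11 ran from 0.43 (without L6) to 1.98 (without L2). MEIOC, which keeps cells in the meiotic programme, had 278, 272, 259 and 308 CPM in the low and 316, 328, 305 and 388 CPM in the high boars (log2 fold change 0.27, adjusted p = 0.113). L4 overlaps the high group. TERB2, the telomere attachment gene, had 27.0, 21.1, 18.1 and 29.0 CPM against 21.7, 22.03, 20.8 and 21.5 CPM (log2 fold change -0.14, adjusted p = 0.566). TEX14 had 169, 160, 161 and 139 CPM against 145, 136, 180 and 120 CPM (log2 fold change -0.10, adjusted p = 0.629). Both genes overlapped between the groups.

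Among the late members, 3 of 12 were called. HFM1, a helicase of the crossover pathway (ENSSSCG00000006912, chromosome 4 from 125522300 to 125614296), had 65.3, 67.0, 63.3 and 69.1 CPM in the low and 76.8, 89.5, 83.97 and 96.05 CPM in the high boars. The low boars lay within a narrow band and every high boar was above it (log2 fold change 0.40, standard error 0.11, adjusted p = 0.0361 by edgeR). TRIP13, the ATPase that strips HORMA-domain proteins from synapsed axes, had 41.5, 45.6, 47.2 and 47.2 CPM in the low and 38.4, 27.1, 32.3 and 28.9 CPM in the high boars. Its groups did not overlap either (log2 fold change -0.50, standard error 0.15, adjusted p = 0.0409 by edgeR). SYCE3, a small central element protein, had 11.5, 6.90, 9.46 and 11.3 CPM in the low and 5.04, 3.72, 7.84 and 3.49 CPM in the high boars. L7 was above L2, so the groups overlap, and the exact permutation p was 0.0571 while the edgeR test passed (log2 fold change -0.93, standard error 0.29, adjusted p = 0.0444). The other 4 central members had log2 fold changes above 0, up to 0.47 for SYCP1, the transverse filament (adjusted p = 0.0844). TEX11, SHOC1 and MSH4 of the crossover pathway had 0.50, 0.43 and 0.41, and MSH5, the partner of MSH4, -0.35, none of them called.

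**Figure D3:**
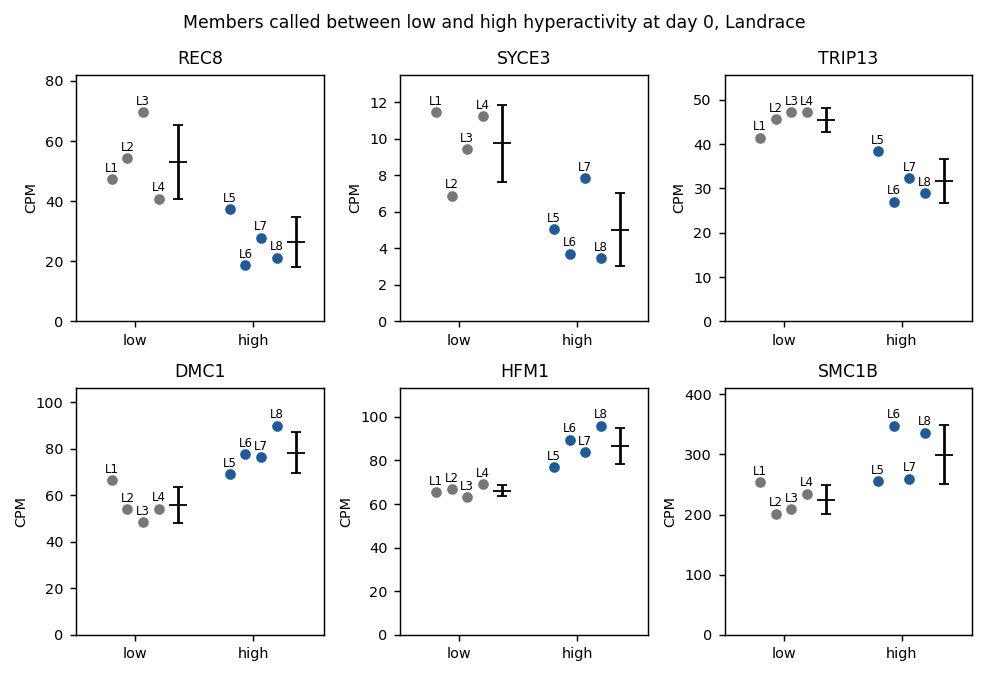
CPM of the 6 members called between the day 0 groups in Landrace, with 1 point per boar and, beside each group, its mean and SD (n = 4), on axes that start at 0. REC8, TRIP13, DMC1, HFM1 and SMC1B do not overlap between groups, and in SYCE3 boar L7 (7.84 CPM) lies above L2 (6.90 CPM).

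The early and the late members had similar medians in the main fit of this comparison. The median log2 fold change was 0.31 over the 23 early and 0.29 over the 12 late members, beside 0.038 over all genes tested. With each boar left out, the early median ran from 0.23 (without L8) to 0.37 (without L5). The late median ran from 0.17 (without L3) to 0.36 (without L5). Values were above 0 in 25 of 36 members, or 69.4%, and in 52.2% of all genes. The median over the early members per boar, as deviation from the mean of each gene over 21 boars, was -0.085 ± 0.11 (SD, n = 4) in the low and 0.13 ± 0.14 (SD, n = 4) in the high group. Over the late members it was -0.053 ± 0.11 and 0.11 ± 0.14. With counts scaled by library size only, the median of all genes moved from 0.038 to -0.11, the early median to 0.16 and the late median to 0.14. That scaling called 4 members, all lower (REC8, STAG3, SYCE3 and TRIP13), where the main scaling gave 3 higher and 3 lower.

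The 3 members called lower also followed the depth of the library, a relation looked for after the values were seen. Only the 6 called members were examined. They were picked from the day 0 comparison, whose high boars had the higher median depth and whose boars are among the 21. The sign of r may be partly set by that choice, and the permutation p-values do not allow for it. Over the 21 boars, log2 CPM of REC8 fell with the number of counts (Pearson's r = -0.58, permutation p = 0.00429, adjusted over 6 members 0.0129, and Spearman's rho = -0.55, permutation p = 0.0106, adjusted 0.0265). Without D3 and L8, the boars farthest from the median depth, r was -0.50. Within the breeds it was -0.55 over 13 Landrace and -0.71 over 8 Duroc boars. For SYCE3 r was -0.59 and rho -0.60 (adjusted permutation p = 0.0129 and 0.0265), -0.49 without the same pair, and -0.58 and -0.67 within the breeds. For TRIP13 r was -0.57 and rho -0.54 (adjusted permutation p = 0.0134 and 0.0265), -0.47 without the pair, and -0.55 and -0.62 within the breeds.

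The members called higher showed no such relation past the threshold. DMC1, HFM1 and SMC1B had r of 0.24, 0.32 and 0.20 and rho of 0.097, 0.36 and 0.060, with the lowest adjusted permutation p at 0.170. Without the pair of boars r was -0.17, 0.41 and -0.046. It was 0.16, 0.39 and -0.0047 in Landrace and 0.42, 0.31 and 0.56 in Duroc. Over all genes tested, 7.72% had a lower r with depth than REC8, 6.24% than SYCE3 and 8.93% than TRIP13. The high boars of day 0 had a median of 82926500 counts and the low boars 67344800, and the part of depth in the group difference was not tested.

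Marker lists of other cells are given beside these values. Between the day 0 groups, 0 of 5 pachytene spermatocyte genes were called, with a median log2 fold change of 0.32, close to that of the members. Of 6 spermatogonial genes 2 were higher, and of 8 round spermatid genes 2 were lower. Of 9 elongating spermatid genes 4 were lower, and of 5 peritubular and vessel genes 1 was lower. The shares of all genes were 4.47% higher and 15.4% lower. The elongating spermatid median was -0.28 and the peritubular and vessel median -0.99. Peritubular and vessel genes summed to 55.6 to 121 CPM in the low and 21.8 to 72.5 CPM in the high boars. None of 8 Sertoli, 6 Leydig and 3 immune genes was called, at medians of -0.10, 0.22 and 0.13. Their part in the member values was not tested.

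Of a wider list of 42 measured meiosis genes that are not members, 4 were higher and 2 lower in the high boars. Over all genes 4.47% were higher and 15.4% lower. The median of the list was 0.25, beside 0.038 over all genes. SMC3, the partner of SMC1B, gave a log2 fold change of 0.59 (adjusted p = 0.0300 by edgeR), NBN of the break-processing complex 0.67 (adjusted p = 0.0401) and BRDT, a germ cell bromodomain protein, 0.47 (adjusted p = 0.0434). KASH5, which links telomeres to dynein through the nuclear envelope, was lower at -1.15 (adjusted p = 0.0228), as was MEIOSIN, a transcription factor of meiotic entry, at -1.36 (adjusted p = 0.0378).

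Single boars set how many members were called at day 0, and how many of all genes. Without L3 or without L6 no member was called by edgeR, with 10 and 18 members at an unadjusted p under 0.05, and of all genes 5.27% and 0.00779% were called. Without L1, L2, L4, L7 and L8 the count was 2, 2, 1, 4 and 1 members, beside 7.81%, 14.6%, 12.1%, 19.8% and 8.84% of all genes. Without L5 it was 14 members, or 38.9%, beside 28.2% of all genes. REC8 was called in 14 of the 16 alternatives tried. All 6 called members were among those of the likelihood ratio test and of DESeq2.

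For the change in hyperactivity over 96 h, no member was called by edgeR, where 0.00779% of all genes was called, or 1 gene. The unadjusted p was under 0.05 for 4 of 36 members and for 19.8% of all genes. The likelihood ratio test and DESeq2 also called 0 members, beside 0.444% and 0.904% of all genes. The smallest p was that of MSH4, which stabilizes recombination joints on their way to crossovers. MSH4 had 19.6, 18.95, 19.5 and 21.4 CPM in the low boars (L2, L9, L10 and L12) and 24.7, 47.1 and 25.1 CPM in the high boars (L7, L13 and L15). The groups did not overlap, and L13 alone was far above (log2 fold change 0.70, standard error 0.23, adjusted p = 0.241, exact permutation p = 0.0286). With each boar left out, the log2 fold change of MSH4 ran from 0.35 (without L13) to 0.85 (without L7).

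TRIP13 had 45.6, 42.0, 42.5 and 38.8 CPM in the low and 32.3, 27.0 and 35.6 CPM in the high boars (log2 fold change -0.42, adjusted p = 0.241). RAD51C, of strand exchange, had 10.02, 10, 10.2 and 9.16 CPM against 12.8, 13.9 and 12.1 CPM (log2 fold change 0.39, adjusted p = 0.248). MND1 had 11.3, 13.6, 15.4 and 13.6 CPM against 19.4, 16.8 and 18.2 CPM (log2 fold change 0.43, adjusted p = 0.245). These 3 members and YTHDC2, an RNA helicase of meiotic entry, did not overlap between the groups either. That made 5 of 36 members, or 13.9%, where 16.1% of all genes did not overlap. YTHDC2 had 90.4, 91.1, 80.8 and 81.05 CPM against 93.4, 115 and 93.0 CPM (log2 fold change 0.22, adjusted p = 0.333).

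The next members overlapped. STAG3 had 655, 558, 664 and 599 CPM in the low and 462, 292 and 602 CPM in the high boars (log2 fold change -0.45, adjusted p = 0.267). HSF2BP, which brings BRCA2 to meiotic breaks, had 70.3, 64.7, 62.9 and 75.0 CPM against 56.3, 32.2 and 62.9 CPM (-0.43, adjusted p = 0.283). In both, L13 was lowest and L15 lay with the low boars. REC8 had 54.2, 38.2, 35.7 and 61.9 CPM against 27.9, 19.4 and 48.5 CPM (-0.56, adjusted p = 0.303), and SYCE3 6.90, 7.12, 6.88 and 14.2 CPM against 7.84, 4.03 and 5.64 CPM (-0.57, adjusted p = 0.322). Leaving out L15 gave -0.71 for STAG3, -0.62 for HSF2BP and -0.998 for REC8, and leaving out L13 gave -0.20, -0.17 and -0.29. These were the ends of their ranges with each boar left out. The day 0 and storage comparisons share L2 and L7, so the values of these comparisons are not independent. MEI4, of the break machinery, stood near the filter, with 1.52, 0.81, 0.97 and 1.20 CPM against 1.64, 2.48 and 0.87 CPM (0.56, adjusted p = 0.384).

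SPO11 had 22.5, 4.74, 55.9 and 5.75 CPM in the low and 26.9, 6.02 and 60.1 CPM in the high boars, each group with boars on either side of the gap (log2 fold change 0.47, standard error 0.86, adjusted p = 0.762). TERB2 had 21.1, 19.4, 16.8 and 19.2 CPM against 20.8, 27.0 and 20.9 CPM (0.26, adjusted p = 0.371). TEX14 had 160, 150, 160 and 173 CPM against 180, 141 and 134 CPM (-0.079, adjusted p = 0.748). The median log2 fold change was 0.018 over early and 0.0038 over late members, near 0.0029 for all genes, and 18 members lay on each side of 0, where 50.4% of all genes lay above it. No gene of the wider list or of the marker lists was called. The elongating spermatid list had a median of -0.62, with sums of 12471 to 15359 CPM in the low and 6823 to 12852 CPM in the high boars. NBN had 0.81 and CCNB1IP1, a crossover regulator, 0.62 (both adjusted p = 0.241), and REC114, a break formation gene, -0.47 (adjusted p = 0.248).

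In Duroc no member was called between the boars labelled High and Low, and 0% of all genes was called. No member had an unadjusted p under 0.05, beside 1.22% of all genes, and the likelihood ratio test and DESeq2 called 0. TEX14 had the smallest p. Its level was 206, 166 and 175 CPM in the boars labelled Low (D6, D7 and D9) and 148, 157, 129, 162 and 145 CPM in those labelled High (D1 to D5). The groups did not overlap (log2 fold change -0.30, standard error 0.14, adjusted p = 0.9998 by edgeR, exact permutation p = 0.0179, the smallest that 5 against 3 allow). It was the 1 member of 36, or 2.78%, without overlap, beside 1.39% of all genes.

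STAG3 had 392, 492 and 503 CPM in the boars labelled Low and 372, 334, 416, 444 and 290 CPM in those labelled High (log2 fold change -0.32). SYCE1 of the central element had 190, 164 and 192 CPM against 144, 160, 146, 170 and 152 CPM (-0.24). BRCA2, which loads the recombinases, had 42.2, 31.1 and 33.1 CPM against 33.7, 33.7, 23.1, 31.9 and 29.3 CPM (-0.23). All 3 overlapped, with D4 within the boars labelled Low for STAG3 and SYCE1. Values ran from that of STAG3 to 0.26 in MSH4 and MEI4, and each sign would turn if the labels were exchanged. SPO11 had 48.1, 49.6 and 42.9 CPM against 25.4, 79.1, 55.6, 50.6 and 42.9 CPM, so that the lowest and the highest Duroc boar were both labelled High. The median log2 fold change was 0.053 over early and 0.022 over late members, beside 0.043 over all genes. Values were above 0 in 19 of 36 members and in 58.8% of all genes as labelled, and in 17 members and 41.2% of genes with the labels exchanged.

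A test of the difference of the high over low change between Landrace at day 0 and Duroc as labelled called 0 of 36 members and 0 of 12835 genes by edgeR. An unadjusted p under 0.05 was found for 2 members and for 15% of all genes. SYCE1 gave a log2 fold change of 0.11 in Landrace and -0.24 in Duroc, and BRCA2 0.31 and -0.23 (both adjusted p = 0.331). REC8 had -0.99 and -0.11 (adjusted p = 0.332), so its day 0 value in Landrace was not shown to differ from that in Duroc. Since the Duroc direction is in doubt, the difference was also tested with the Duroc groups exchanged, a choice made after seeing the data. It again called 0 members and 0 genes, with an unadjusted p under 0.05 for 9 members and 19.8% of all genes. SYCE1 and BRCA2 were not among these, at 0.11 and 0.24 and at 0.31 and 0.23 (adjusted p = 0.496 and 0.896 by edgeR). STAG3 had the smallest p of the members, at -0.42 in Landrace and 0.32 in Duroc (adjusted p = 0.246 by edgeR), and REC8 had -0.99 and 0.11 (adjusted p = 0.246).

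Between the breeds no member was called by edgeR, where 2.77% of all genes was called, made up of 1.29% higher and 1.48% lower in Duroc. An unadjusted p under 0.05 was found for 8 of 36 members, or 4 early and 4 late, and for 12.2% of all genes. The likelihood ratio test called SMC1B and DMC1, or 5.56% of members beside 3.87% of all genes. DESeq2 called STAG3 and DMC1, beside 4.18% of all genes, and scaling by library size only called SMC1B, SYCE1 and HFM1, or 8.33% beside 3.07%. Leaving out L8, D1 or D4 called DMC1, leaving out L6 SMC1B, leaving out L13 STAG3 and leaving out D6 HFM1, 1 member each, or 2.78%, beside 2.01% to 3.67% of all genes in these fits. No member separated the breeds, as did 0.28% of all genes.

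DMC1 ran from 48.4 to 89.9 CPM in Landrace with a median of 65.8, and from 55.6 to 158 CPM in Duroc with a median of 86.3. Duroc over Landrace, the log2 fold change was 0.56 with a standard error of 0.17 (adjusted p = 0.0717 by edgeR, exact permutation p = 0.0122). SYCE1 had the smallest exact permutation p, 0.0011, with 121 to 158 CPM and a median of 136 in Landrace against 144 to 192 CPM and a median of 162 in Duroc (log2 fold change 0.24, standard error 0.07, adjusted p = 0.0787). The breeds overlapped in both genes. SMC1B ran from 202 to 348 CPM with a median of 257 in Landrace and from 268 to 483 CPM with a median of 343 in Duroc (0.38, adjusted p = 0.0795, exact permutation p = 0.00506).

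STAG3 and HFM1 had the opposite sign. STAG3 ran from 292 to 664 CPM in Landrace with a median of 586, and from 290 to 503 CPM in Duroc with a median of 404 (log2 fold change -0.43, adjusted p = 0.0976, exact permutation p = 0.0111). L13, at 292 CPM, was the 1 Landrace boar below 395 CPM. HFM1 ran from 63.3 to 96.05 CPM with a median of 76.8 in Landrace and from 41.5 to 95.9 CPM with a median of 56.7 in Duroc (-0.38, adjusted p = 0.116, exact permutation p = 0.00397). D6, at 95.9 CPM, was the 1 Duroc boar above 67.4 CPM. Without D6 the log2 fold change of HFM1 was -0.50 (adjusted p = 0.0110 by edgeR). D6 is named here for its value, and this p does not allow for that choice. HFM1 passed in 2 of 31 alternatives, and its adjusted p in them reached 0.461.

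SPO11 had a median of 6.13 CPM in Landrace and 48.8 CPM in Duroc. Its log2 fold change was 1.28 with a standard error of 0.49 (adjusted p = 0.211 by edgeR, exact permutation p = 0.0028), and it did not pass the edgeR test in any of 31 alternatives. The 5 Landrace boars above the gap lay at 22.5 to 60.1 CPM, within or just below the Duroc range of 25.4 to 79.1 CPM. TRIP13 had medians of 38.8 and 45.5 CPM (0.30, adjusted p = 0.398) and SHOC1, a crossover gene, 23.1 and 27.4 CPM (0.34, adjusted p = 0.407). TEX14, YTHDC2 and TERB2 led their roles with log2 fold changes of 0.088, -0.082 and 0.044, all at an adjusted p of 0.915 or more. The remaining 25 members had log2 fold changes from -0.26 (MSH5) to 0.23 (HSF2BP).

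Neither the early nor the late members stood apart by breed. The median log2 fold change was -0.040 for the early and -0.036 for the late members, beside -0.0075 for all genes, and 14 of 36 members lay above 0, where 48% of all genes did. The per-boar median over the early members was 0.014 ± 0.13 (SD, n = 13) in Landrace and 0.018 ± 0.19 (SD, n = 8) in Duroc, and over the late members 0.030 ± 0.13 and -0.0036 ± 0.12. Of the wider list 0 of 42 genes were called. In Duroc 1 spermatogonial gene of 6 was lower and 1 Sertoli gene of 8 higher, and no gene of the other marker lists was called. The shares of all genes were 1.48% lower and 1.29% higher.

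**Figure D4:**
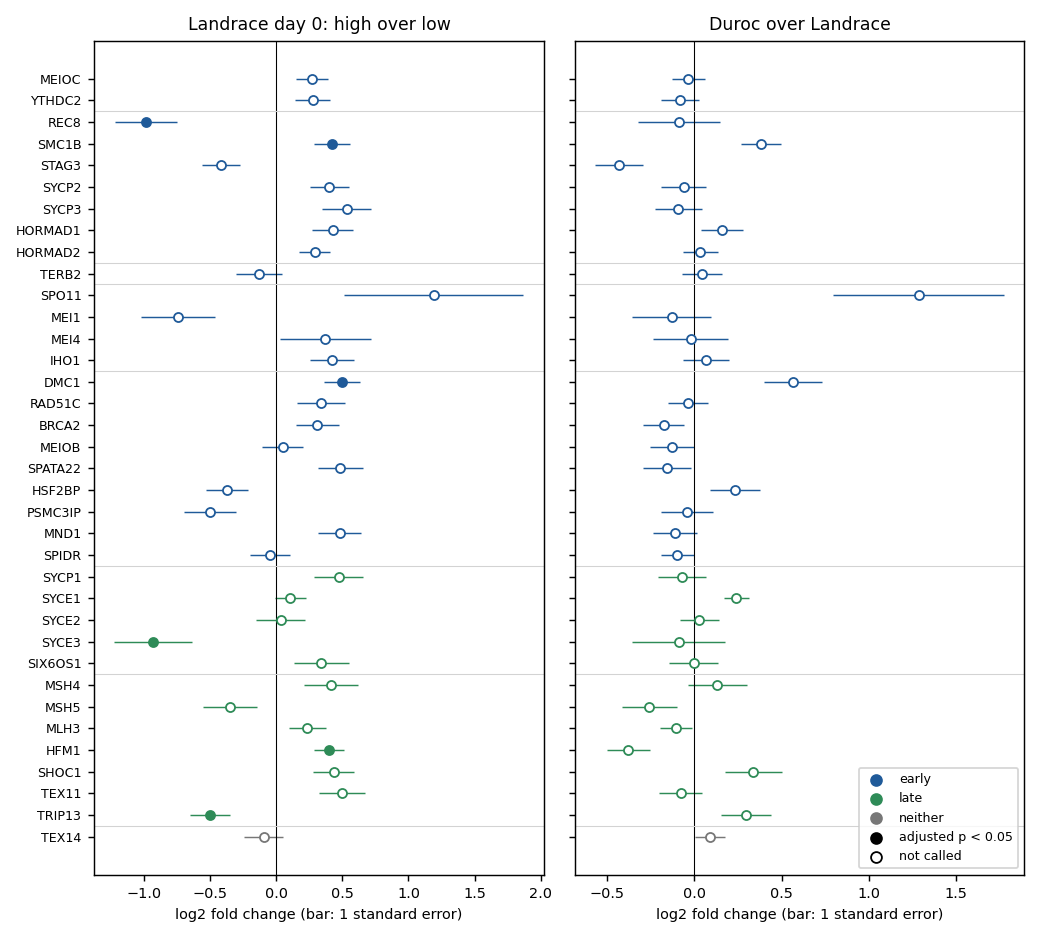
Log2 fold change of each of the 36 members, with a bar of 1 standard error, between high and low hyperactivity at day 0 in Landrace (left) and between Duroc and Landrace (right), by role, early members in blue, late in green and TEX14 in grey. Filled points passed the edgeR test at an adjusted p of 0.05, which 6 members did on the left and 0 on the right.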

How the data were processed

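The libraries were stranded single-read libraries of testis RNA, 1 for each of 13 Landrace and 8 Duroc boars. The authors trimmed reads with Trimmomatic 0.36, aligned them to Sscrofa11.1 with STAR, and counted them per Ensembl gene with HTSeq on the reverse strand. The deposited values are raw counts per gene, without normalization.

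Symbols came from an identifier table naming 14857 of 25880 identifiers, and coordinates from RefSeq by symbol. Levels were not compared between genes, since transcript lengths were not used here. Members, roles and lists were chosen with earlier results of these data known. Genes that reached 1 CPM in 11 or more of the 21 libraries were tested with edgeR 4.0.16 under R 4.3.3 (limma 3.58.1), TMM scaling and the quasi-likelihood test, on the boars of each comparison, with Benjamini-Hochberg adjustment over 12835 genes. Standard errors come from the log2 fold change and its statistic. The fits were tested on simulated data. CPM are TMM-scaled over 21 libraries. The exact permutation test, two-sided, enumerated 70, 35, 56 and 203490 assignments. For the breeds this replaced the planned 100000 resamples, which the relations with depth used. Single-gene permutation values are not adjusted. P-values measure the spread between boars. Members named had the 8 smallest p of a comparison or the smallest of their role. Members beyond that rule were added after their values were seen. Alternatives were a likelihood ratio test, DESeq2 1.42.0, other scalings and filters, and other choices of boars. Promoters, proteins and GC content were not analysed here.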

Additional observations from a re-analysis of the deposited data

Results flagged for a closer look

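A boar far from the others of its group was found in 10 of 180 combinations of member and group of 4 to 10 boars, by Dixon's test at the 95% level, where chance gives about 1 in 20, or 9. In the Landrace low group at day 0, SPO11 was 22.5 CPM in L2 beside 5.37 to 6.13 CPM in the others, HSF2BP was 59.1 CPM in L4 beside 68.7 to 70.3 CPM, and MLH3 was 177 CPM in L4 beside 131 to 136 CPM. In the high group at day 0, L8 had 741 CPM of SYCP3 beside 435 to 462 CPM, and 376 CPM of SPATA22 beside 249 to 263 CPM. In the low group of the storage comparison, L12 had 14.2 CPM of SYCE3 beside 6.88 to 7.12 CPM, and 12.2 CPM of SHOC1 beside 23.1 to 26.3 CPM. In that group L2 had 133 CPM of MLH3 beside 154 to 158 CPM, and 9.79 CPM of TEX11 beside 12.3 to 12.8 CPM. Among the Duroc boars labelled High, D2 had 43.6 CPM of SHOC1 beside 24.3 to 27.7 CPM. Of these, 2 are in L8, which was the highest or lowest of the 21 boars in 30.8% of all genes.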

How the results depend on the processing

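At day 0 in Landrace, the likelihood ratio test called 11 members, DESeq2 15, and the fit without the 2 shared boars 2, where the main test called 6, and leaving out each boar gave 0 to 14. Of all genes these fits called 25.7%, 29.2%, 14.8%, 19.9%, and 0.00779% to 28.2%. By library size only, the early median was 0.16 and the late median 0.14, while the median of all genes moved from 0.038 to -0.11. For storage, the early median of 0.018 was -0.064 without the 2 shared boars, and -0.0093 to 0.11 (without L9) with each boar left out. For Duroc as labelled, the late median of 0.022 was -0.11 (without D2) to 0.11 with each boar left out. For the breeds, the likelihood ratio test called 2, DESeq2 2 and library size only 3 members, and leaving out each boar 0 to 1, beside 3.87%, 4.18%, 3.07%, and 2.01% to 3.67% of all genes.

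None of the 13 members whose day 0 values were recomputed under the alternatives changed sign. The other genes named at day 0 were not recomputed. With each boar left out, log2 fold changes for storage ran from -0.23 to 9.43e-04 for TEX14 and from -0.44 to 1.51 for SPO11, each with a change of sign without L15 and no other boar. In Duroc as labelled, TERB2 ran from -0.058 to 0.16 and SPO11 from -0.10 to 0.25, both below 0 without D2 alone, and YTHDC2 from -0.0099 to 0.27, below 0 without D9 alone. By breed, TERB2 ran from -0.029 (without D2) to 0.091, and was -0.043 without D2, D9, L3 and L8, a choice made after seeing the data. The causes were not tested. No paired analysis was possible because each boar is in 1 group of a comparison and the replicate numbers only name the boars. MEI4, at about 1 CPM, is the member with the fewest reads. The Duroc labels, GC content and the 7 members without an identifier limit what was measured.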
